A study of Sus scrofa with 2 samples.

Results

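Amino acid transporter genes of the pig pancreas were followed across classes of nuclei and between a WT and a PIGinH11 library. They were taken as all gene symbols of the solute carrier groups SLC1A, SLC3A, SLC6A, SLC7A, SLC36A, SLC38A and SLC43A with at least 20 unique molecular identifiers (UMIs) over all barcodes of both matrices. Of 57 such symbols among 31908 genes, 52 passed, and these were 7 members of SLC1, 2 of SLC3, 14 of SLC6, 12 of SLC7, 4 of SLC36, 10 of SLC38 and 3 of SLC43. SLC6A3, SLC6A18, SLC6A19 and SLC6A7 were just below the limit with 12, 14, 15 and 17 UMIs, and SLC7A3 had 2. SLC6A14, SLC7A4 and SLC7A10 were just above it with 24, 27 and 42. The prefixes also took in SLC7A6OS, which lies beside SLC7A6 and is not a transporter, and some members carry other cargo: SLC6A2 and SLC6A4 carry monoamines, SLC6A8 carries creatine and SLC43A3 carries nucleobases.

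The nuclei came from 1 piece of pancreas of 1 WT Bama pig and 1 piece from 1 PIGinH11 pig. The PIGinH11 pig is a transgenic Bama pig with knock-in GIPRdn, hIAPP and PNPLA3 I148M at the H11 locus on chromosome 14, driven by beta-cell or liver promoters. Both pigs were 18 months old and were on control diet up to 6 months of age, then for 12 months on HFHSD, a high-fat and high-sugar diet in which pork lard made up 10%, sucrose 37% and control diet the other 53%. With 1 library per group the spread between animals was not measured, so no test between the groups and no p-value is given. All intervals are exact 95% intervals that cover counting error only, which means Poisson intervals for levels and conditional binomial intervals for ratios.

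Amino acids cross membranes on carriers, since they cannot pass the lipid bilayer. Some carriers use the sodium or proton gradient to concentrate them (SLC1, SLC6, SLC36, SLC38), while others exchange one amino acid for another, and several of these SLC7 light chains reach the membrane only when bound to the heavy chain SLC3A1 or SLC3A2. The exocrine pancreas is known for a high rate of protein synthesis, which draws on this uptake, and in islets cationic amino acids and glutamine are known to act on hormone release.

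The WT library held 55784067 UMIs in 13619 barcodes and the PIGinH11 library 26228811 UMIs in 14964 barcodes. After filtering, 11854 WT nuclei with a median of 3018.5 UMIs and 13126 PIGinH11 nuclei with a median of 1167 were kept, and 60 barcodes were shared by the libraries. Clustering without the members gave 22 clusters, of which 20 could be named from markers. Between 6 of 7 and all of the measured markers were highest in their own class in both libraries, for every broad class and every islet class. WT and PIGinH11 nuclei numbered 8442 and 8964 in the acinar-like class, 2152 and 2196 in the ductal-like, 279 and 560 in the endocrine-like, 279 and 548 in the endothelial-like and 195 and 259 in the stellate-like class. The mural-like, immune-like and Schwann-like classes held at most 86, 217 and 61 nuclei in a library. Of the immune-like nuclei, 16 WT and 121 PIGinH11 nuclei formed a sub-cluster that could not be named. In it, 7 of 7 measured acinar markers were raised above the other immune-like sub-clusters. The libraries also differed in RNA makeup: mitochondrial UMIs made up 0.136% of WT and 0.0490% of PIGinH11 UMIs, and ribosomal protein genes 0.496% and 0.268%. A wide set of digestive enzyme and other acinar secretory genes made up 8.94% and 4.91%. Only 7 digestive enzyme genes of that set are used below (PRSS2, CPA1, CPB1, PNLIP, CELA2A, CLPS and CTRC). The pig GIPR gene had 55 UMIs in WT and 68 in PIGinH11 endocrine-like nuclei, and pig IAPP had 0 in both, so that neither checks the human transgenes.

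The members took 0.188% of the WT and 0.212% of the PIGinH11 UMIs of retained nuclei. Their depth differed widely, from 24 UMIs for SLC6A14 to 31180 for SLC43A1 over all barcodes, with a median of 1019.5. In 40 of the 52 members, at least 1 broad class held 50 or more UMIs. The other 12 were too shallow for a comparison of the libraries, among them SLC1A6, SLC1A7, SLC6A2, SLC6A5, SLC6A12, SLC6A14, SLC6A15, SLC7A4, SLC7A10, SLC7A13 and SLC43A3. Levels are given in CPM, the UMIs of a gene per 1000000 UMIs of all genes, both summed over the nuclei of a class in 1 library. They were compared within a gene only, since UMI levels were not scaled to gene length.

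To ask which class each carrier belongs to, a member was called enriched when the same 1 of 8 broad classes was the highest in both libraries, at least 4 times the median of the other 7, with at least 10 UMIs in each library. By this rule 14 of the 52 members were enriched, 6 in acinar-like, 7 in endocrine-like and 1 in endothelial-like nuclei. Over all genes with at least 20 UMIs, 13.2% met the same rule. Ductal-like, stellate-like, mural-like, immune-like and Schwann-like nuclei had no enriched member under it. Among the 36 members with at least 200 UMIs in the named classes, 24 had the same highest class in both libraries, against 48.1% of all such genes.

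**Figure D1:**
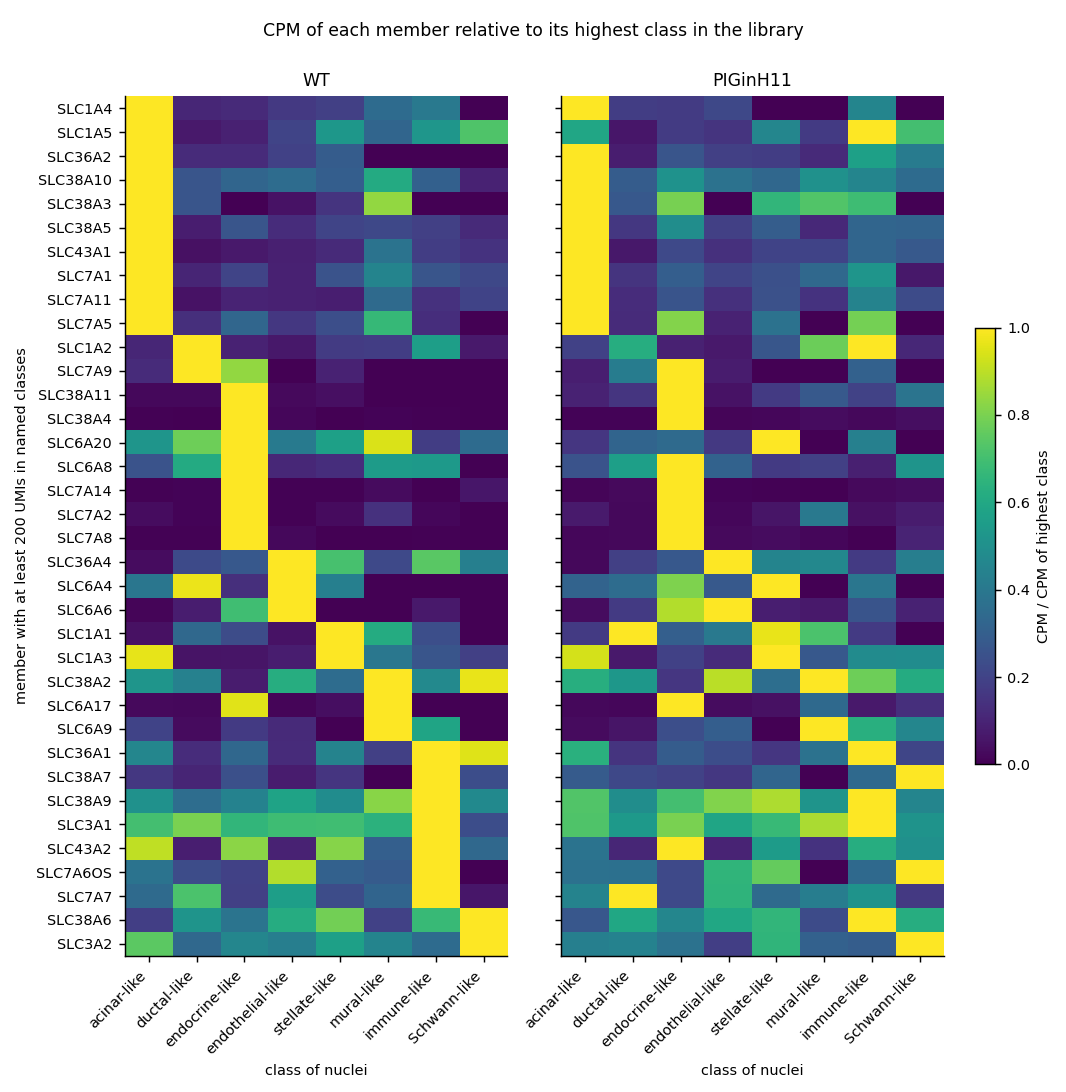
CPM of the 36 members with at least 200 UMIs (rows) in the 8 broad classes of nuclei (columns), each divided by the CPM of the member's highest class in that library, for WT (left) and PIGinH11 (right). The bright cells of 24 members are in the same column in both panels, most often in the acinar-like or endocrine-like class.

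In acinar-like nuclei, the secretory cells of the exocrine gland, the enriched members were SLC43A1, SLC7A11, SLC7A1, SLC7A5, SLC1A4 and SLC36A2. SLC43A1, a carrier of leucine and other large neutral amino acids (chromosome 2, 13407046 to 13436270, Sscrofa11.1), was at 517 CPM in WT (508 to 525) and at 565 CPM in PIGinH11 (553 to 577). Its next highest class was mural-like in WT at 197 CPM and immune-like in PIGinH11 at 185 CPM. SLC7A11, the light chain that takes up cystine in exchange for glutamate (chromosome 8, 88608083 to 88690589), was at 462 CPM in WT (455 to 470) and at 345 CPM in PIGinH11 (336 to 354). This was 9.93 and 4.40 times the median of the other classes.

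SLC7A1, the main carrier of arginine and lysine in many cells, was at 117 CPM in WT and 148 CPM in PIGinH11 acinar-like nuclei, 4.64 and 4.07 times the median of the other classes. SLC7A5, the leucine exchanger that pairs with SLC3A2, was at 33.9 and 17.0 CPM, 6.24 and 8.05 times that median. Its second highest classes were close, mural-like in WT at 22.8 CPM and endocrine-like in PIGinH11 at 13.8 CPM, 1.49-fold and 1.23-fold below. For SLC1A4, which exchanges alanine, serine and cysteine, the values were 21.8 and 14.8 CPM, against 8.86 and 6.72 CPM in immune-like nuclei. SLC7A1, SLC7A5 and SLC1A4 thus kept the acinar-like class as their highest in both libraries, although the level of SLC7A5 and SLC1A4 was lower in PIGinH11.

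SLC36A2, a proton-coupled carrier of proline and glycine (chromosome 16, 71661946 to 71689464), was also acinar-enriched, at 14.1 CPM in WT and 118 CPM in PIGinH11. SLC38A5 and SLC38A10 were also highest in this class in both libraries but missed the rule. SLC38A5, which carries glutamine with sodium, was at 141 and 123 CPM in acinar-like nuclei, 5.29 times the median of the other classes in WT and 3.40 times in PIGinH11. SLC38A10 was at 87.2 and 140 CPM, 3.28 and 2.66 times that median.

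SLC1A3, a glutamate carrier known from glia, was close to equally high in stellate-like and acinar-like nuclei. It was at 134 and 129 CPM in WT and at 182 and 170 CPM in PIGinH11, differences within the counting intervals. Another glutamate carrier, SLC1A2, had its highest WT level in ductal-like nuclei, at 126 CPM (119 to 134) against 13.3 CPM in acinar-like nuclei. In PIGinH11 it was at 109 CPM in ductal-like nuclei (97.8 to 120), and the immune-like class was higher at 175 CPM from 52 UMIs.

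In the endocrine-like class, the hormone-releasing islet cells, SLC38A4, SLC7A8, SLC7A2, SLC7A14, SLC38A11, SLC6A11 and SLC1A6 were enriched. SLC38A4, which carries neutral and cationic amino acids, was at 701 CPM in WT (654 to 751) and 824 CPM in PIGinH11 (772 to 878). The second highest classes were endothelial-like in WT at 12.7 CPM and Schwann-like in PIGinH11 at 29.4 CPM, 55.3-fold and 28.0-fold below. SLC7A8, a neutral amino acid exchanger that pairs with SLC3A2 (chromosome 7, 75854700 to 75921931), was at 639 CPM in WT and 392 CPM in PIGinH11 endocrine-like nuclei, 44.1 and 10.0 times the second highest class.

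SLC7A2, a carrier of arginine and lysine, was at 841 CPM in WT and 655 CPM in PIGinH11 endocrine-like nuclei. Mural-like nuclei were second with 121 and 264 CPM, from 16 and 37 UMIs. SLC7A14, a lysosomal member of the cationic branch, was at 271 and 282 CPM, 149 and 68.0 times the median of the other classes. The 2 libraries overlapped in their intervals for SLC7A14 (242 to 302 and 252 to 314) and not for SLC7A8 or SLC7A2.

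The islet classes differed in these carriers. SLC7A8 was at 1843 CPM in alpha-like (1689 to 2006) and 174 CPM in beta-like nuclei (142 to 211) of WT, and at 1316 and 128 CPM in PIGinH11. SLC7A2 was at 1540 CPM in alpha-like and 686 CPM in beta-like nuclei of WT, and at 1490 and 677 CPM in PIGinH11. For SLC38A4 the same order held with 1275 and 557 CPM in WT and 1683 and 955 CPM in PIGinH11, so all 3 were higher in alpha-like than in beta-like nuclei in each library, with intervals that did not overlap.

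SLC1A6, a glutamate carrier, was found at 24.9 and 30.1 CPM in beta-like nuclei from 15 and 12 UMIs, while alpha-like nuclei held 0 UMIs in both libraries, which allows up to 10.4 CPM in WT and 11.3 CPM in PIGinH11. SLC38A11 was at 90.6 and 106 CPM in alpha-like and at 26.5 and 7.52 CPM in beta-like nuclei. SLC7A14 was more even over the islet classes, at 362 and 409 CPM in alpha-like, 245 and 303 CPM in beta-like and 350 and 427 CPM in delta-like nuclei. Gamma-like nuclei numbered only 5 in WT, so their levels were not compared.

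SLC6A6, the taurine carrier, was the single member enriched in endothelial-like nuclei, the lining of vessels. It was at 127 CPM in WT (107 to 150) and 103 CPM in PIGinH11 (86.1 to 123). Endocrine-like nuclei followed with 87.9 and 91.3 CPM, and the intervals of the 2 classes overlapped in both libraries. SLC36A4, a proline and tryptophan carrier, was also highest in endothelial-like nuclei, at 137 CPM (116 to 160) and 138 CPM (118 to 160), 3.61 and 3.63 times the median of the other classes and so short of the rule.

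**Figure D2:**
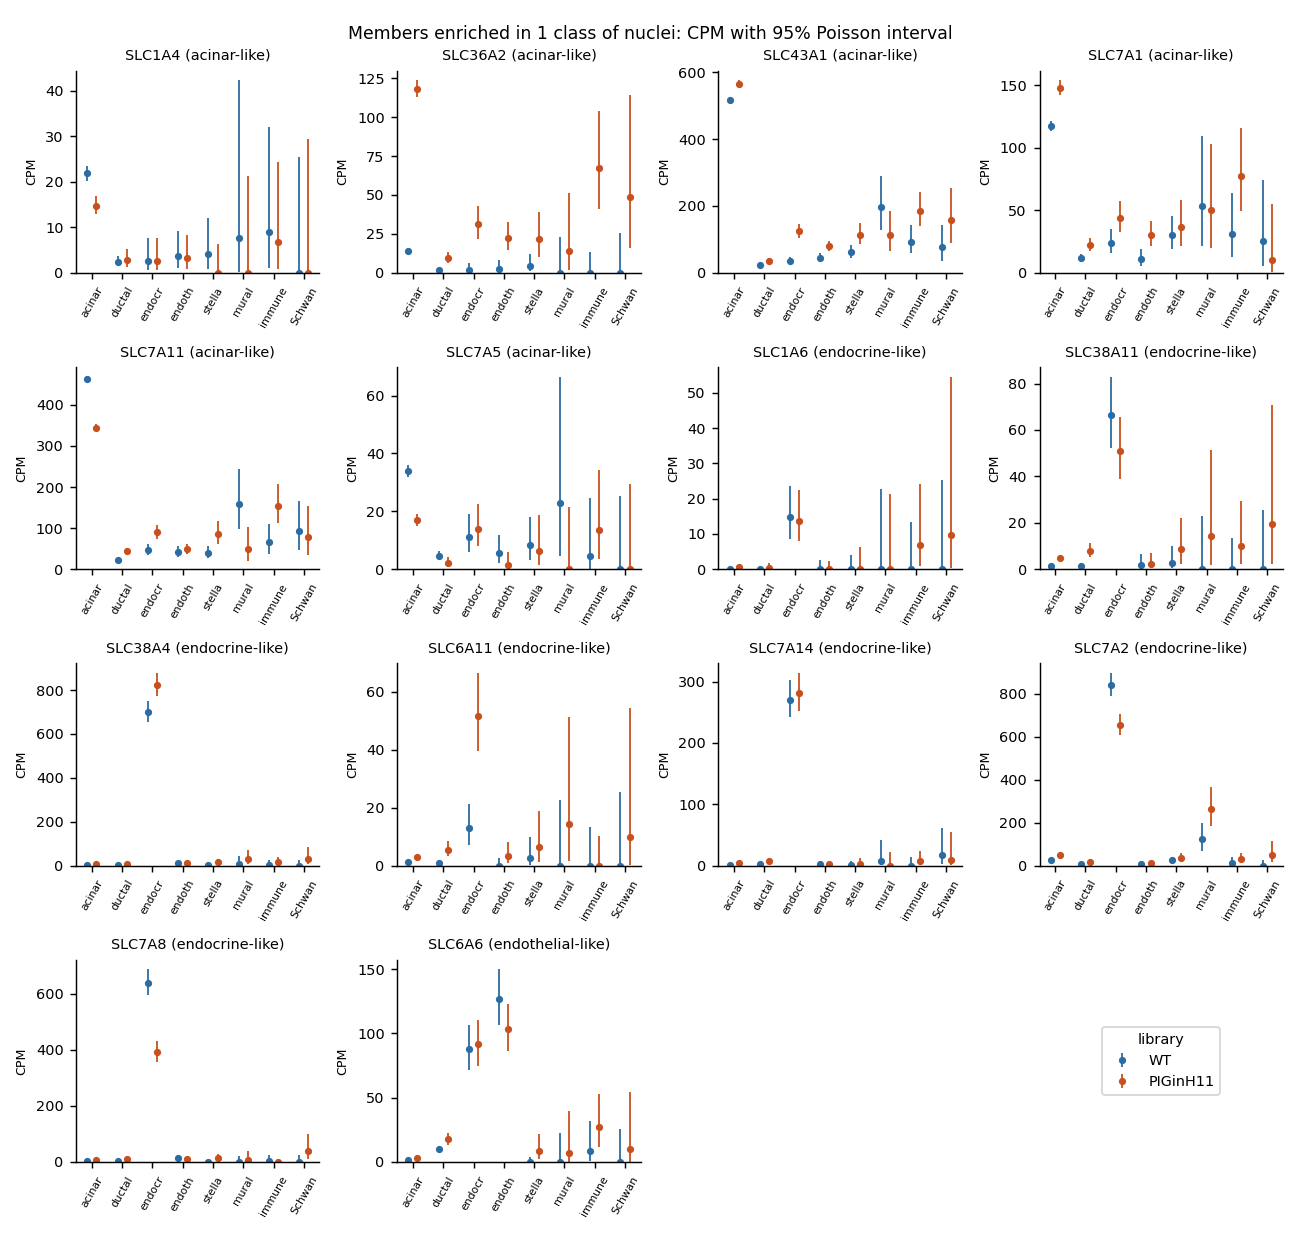
CPM (linear axis from 0) of the 14 class-enriched members in the 8 broad classes, WT in blue and PIGinH11 in orange, with 95% Poisson intervals as bars. SLC38A4, SLC7A8 and SLC7A14 stand near 0 outside the endocrine-like class, while the intervals of mural-like, immune-like and Schwann-like nuclei are wide because these classes are small.

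The heavy chains were spread over all classes, unlike several of their light chains. SLC3A2, the partner of SLC7A5, SLC7A7, SLC7A8, SLC7A10 and SLC7A11, ranged from 17.1 to 50.7 CPM over the 8 classes of WT and from 12.8 to 68.6 CPM in PIGinH11. SLC3A1, which pairs with SLC7A9 for cystine uptake, ranged from 8.44 to 35.4 CPM in WT and from 29.4 to 57.2 CPM in PIGinH11. SLC7A9 itself was at 14.4 and 9.03 CPM in ductal-like and 12.1 and 21.5 CPM in endocrine-like nuclei, against 1.79 and 1.81 CPM in acinar-like nuclei.

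SLC7A7, the light chain that exports arginine and lysine, was at 313 CPM from 29 UMIs in WT macrophage-like nuclei and at 117 CPM from 11 UMIs in those of PIGinH11. In ductal-like nuclei it was at 101 CPM (94.8 to 108) and 118 CPM (106 to 130). SLC7A10, which exchanges small neutral amino acids, had 10 WT and 7 PIGinH11 UMIs in stellate-like nuclei, at 13.7 and 15.0 CPM, while the next highest of the 8 classes was at 0.23 CPM in WT and 0.86 CPM in PIGinH11. The 7 PIGinH11 UMIs left it short of the 10 that the rule asked.

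The remaining members showed no class of their own under the rule. SLC38A9, the lysosomal arginine sensor of the mTORC1 pathway, ranged from 82.0 to 230 CPM over the classes of WT and from 68.6 to 151 CPM in PIGinH11, with immune-like nuclei the highest in both. SLC38A2, a sodium-coupled carrier of small neutral amino acids, was at 123 and 130 CPM in acinar-like and 18.1 and 32.7 CPM in endocrine-like nuclei. SLC38A6 was highest outside the acinar-like class, where it was at 21.8 and 25.5 CPM, with 118 CPM in WT Schwann-like and 94.1 CPM in PIGinH11 immune-like nuclei.

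SLC1A5, the glutamine exchanger, was at 93.0 CPM in acinar-like nuclei of WT, its highest class there, and in PIGinH11 the immune-like class was highest at 84.0 CPM from 25 UMIs. SLC36A1, a proton-coupled carrier of the lysosome, was highest in immune-like nuclei of both libraries, at 79.7 and 94.1 CPM from 18 and 28 UMIs. SLC6A8 was at 41.4 and 37.9 CPM in endocrine-like and at 25.3 and 21.4 CPM in ductal-like nuclei. SLC1A1, a glutamate carrier of epithelia, was at 12.4 and 19.9 CPM in ductal-like and at 36.9 and 19.2 CPM in stellate-like nuclei. SLC43A2, SLC6A17, SLC6A20, SLC38A3, SLC38A7, SLC38A8, SLC6A4, SLC6A9, SLC6A13 and SLC7A6OS differed in their highest class between the libraries or lay below the rule, and SLC36A3 reached at most 6.42 CPM.

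To ask how the PIGinH11 library differed from WT, the log2 ratio of its CPM over the WT CPM was taken within each class. A member was counted as higher or lower when the ratio reached 2-fold and the class held at least 50 UMIs of it in both libraries together. The counts have no replicate behind them, so the share of all genes past the same fold is given beside each.

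In acinar-like nuclei, 7 of 40 members were at least 2-fold higher in PIGinH11 and 1 was at least 2-fold lower. Over all genes of that depth the shares were 15.9% higher and 2.96% lower, so without centring the members were near the background in both directions. Their median log2 ratio was 0.13 against 0.20 over all genes. The spread was wide, from -3.23 for SLC6A9 to 3.07 for SLC36A2. Centring the ratios on the median of all genes with at least 20 UMIs, which lay at 0.28, left 6 members at least 2-fold higher and 6 at least 2-fold lower, against 9.02% and 5.54% of all genes with at least 50 UMIs.

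**Figure D3:**
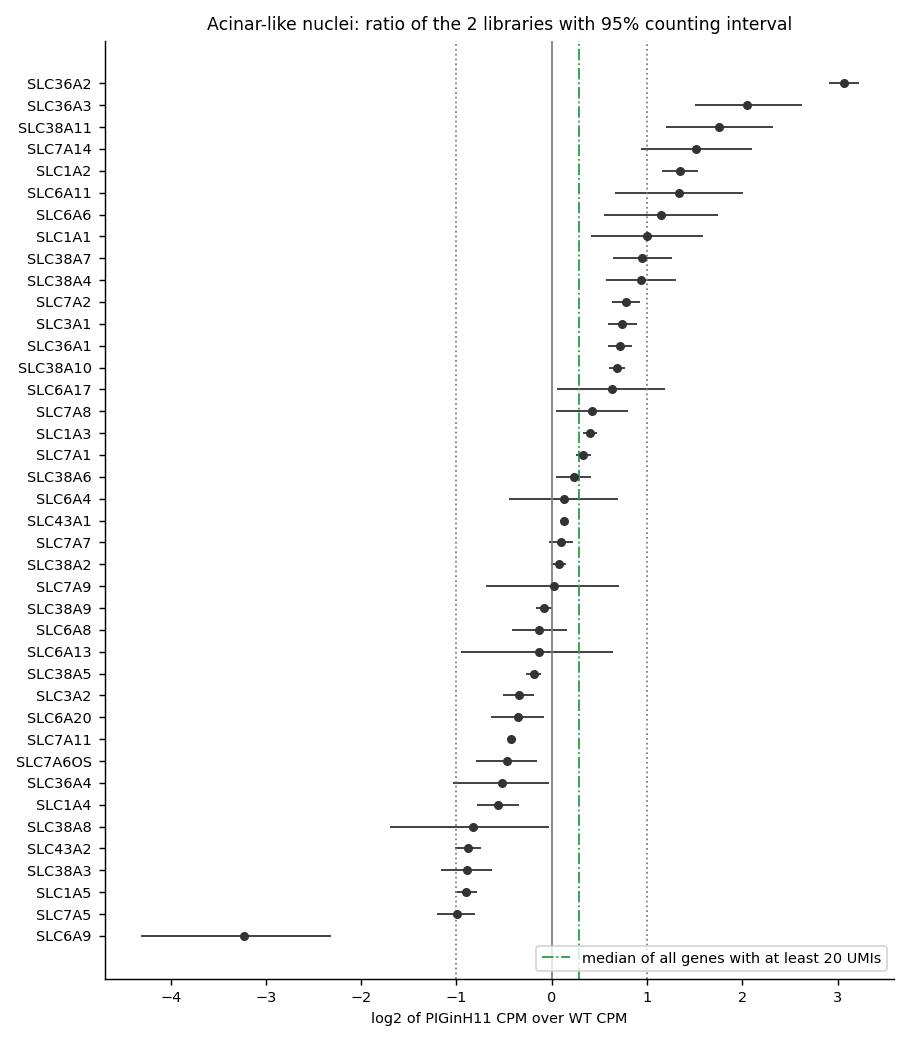
Log2 of PIGinH11 CPM over WT CPM in acinar-like nuclei for the 40 members with at least 50 UMIs of the class, sorted, with 95% conditional binomial intervals as bars. Dotted lines mark 2-fold, and the green line marks the median of all genes at 0.28; SLC36A2 at 3.07 and SLC6A9 at -3.23 stand apart from the other 38 members, which lie between -0.999 and 2.05.

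Of the members compared in acinar-like nuclei, SLC36A2 had the highest ratio. It had 427 UMIs in WT acinar-like nuclei, 14.1 CPM (12.8 to 15.5), and 1826 in those of PIGinH11, 118 CPM (113 to 124), which is 8.37-fold and a log2 ratio of 3.07 (2.91 to 3.22). The 6 acinar-like clusters did not overlap between the libraries, with 10.1 to 19.1 CPM in WT and 110 to 136 CPM in PIGinH11. The same held for SLC1A2, SLC1A5, SLC3A1 and SLC7A2. How many of all genes did so was not counted, so this separation cannot be read as a trait of these members. The clusters are parts of the same libraries and not replicates.

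The share of acinar-like nuclei with an SLC36A2 UMI was 3.67% in WT and 14.5% in PIGinH11 at median depths of 2849 and 1212 UMIs. When 500 UMIs were drawn from every nucleus, so that depth was equal and no nucleus was lost, the shares were 0.817% and 5.71%. In ductal-like nuclei, at median depths of 3405 and 1024.5 UMIs, the thinned shares were 0.139% and 0.546%. SLC36A2 was also higher in PIGinH11 in ductal-like nuclei, at 1.74 and 9.33 CPM, in endothelial-like nuclei, at 2.72 and 22.4 CPM, and in endocrine-like nuclei, at 1.72 and 31.0 CPM. The highest level outside acinar-like nuclei in PIGinH11 was in immune-like nuclei, at 67.2 CPM from 20 UMIs, where WT had 0. The 7 acinar marker genes stood in PIGinH11 ductal-like, endothelial-like and endocrine-like nuclei at 13.7%, 15.1% and 24.1% of their acinar-like level, and in WT at 9.77%, 8.22% and 9.93%. In immune-like nuclei, which include the unnamed sub-cluster with raised acinar markers, they stood at 37.9% in PIGinH11 and 19.1% in WT. The 7 digestive enzyme genes had the opposite direction, with 20.1% in PIGinH11 and 43.5% in WT ductal-like nuclei, 20.6% and 54.3% in endothelial-like, 27.6% and 44.3% in endocrine-like and 45.3% and 83.2% in immune-like nuclei. The part of free acinar RNA in the SLC36A2 levels outside acinar-like nuclei was not tested.

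SLC36A3 is the neighbour of SLC36A2 on chromosome 16 (71689211 to 71732634), and in the RefSeq annotation the pair overlap by 254 bases. Its 41 WT and 87 PIGinH11 UMIs in acinar-like nuclei gave 1.36 and 5.63 CPM, a log2 ratio of 2.05 (1.50 to 2.63). Because the genes overlap, reads of one could be counted for the other, so the value of SLC36A3 is uncertain. SLC36A1 lies 72413 bases from SLC36A2, and it was at 36.5 and 59.8 CPM, a log2 ratio of 0.71 (0.59 to 0.84). SLC36A4, on chromosome 9, was at 4.37 and 3.04 CPM, a ratio of -0.52 (-1.03 to -0.03), so the 4 SLC36 members did not move together.

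SLC6A9, the glycine carrier, was the member with the lowest ratio (chromosome 6, 167267193 to 167301598). It had 184 UMIs in WT acinar-like nuclei, 6.09 CPM (5.24 to 7.03), and 10 in those of PIGinH11, 0.647 CPM (0.310 to 1.19), a log2 ratio of -3.23 (-4.32 to -2.32). Of the WT UMIs 133, or 72.3%, were in acinar-like cluster 2, where PIGinH11 had none among 2898752 UMIs, which made SLC6A9 at least 12.7-fold lower there against a floor of 3 UMIs in that library. In cluster 1 it was at 5.79 and 2.49 CPM from 23 and 7 UMIs. In the other 7 classes SLC6A9 had at most 8 UMIs in a library, with 6 in endocrine-like nuclei of each (5.17 CPM in both) and 4 and 8 in endothelial-like nuclei, too few for a comparison.

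Of the members just short of 2-fold, SLC7A5, SLC1A5, SLC38A3 and SLC43A2 had the lowest ratios among those with over 100 UMIs. They carry large neutral amino acids or glutamine, but other carriers of these differed less. Over the 6 acinar-like clusters SLC43A1 had ratios from -0.06 to 0.62 and SLC38A5 from -0.29 to -0.11. SLC38A7, of the same family as SLC38A3, was higher in all 5 clusters compared, with ratios from 0.57 to 1.41. SLC7A5 was at 33.9 CPM (31.9 to 36.0) and 17.0 CPM (15.0 to 19.1), with a log2 ratio of -0.999 (-1.20 to -0.80). SLC1A5 (chromosome 6, 52647432 to 52661464) was at 93.0 CPM (89.6 to 96.5) and 49.9 CPM (46.4 to 53.5), a ratio of -0.90 (-1.02 to -0.78). Both were lower in PIGinH11 in all 6 acinar-like clusters, SLC7A5 with ratios from -1.62 to -0.17 and SLC1A5 with ratios from -1.24 to -0.64.

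SLC38A3, a glutamine carrier, was at 18.2 and 9.78 CPM, a ratio of -0.89 (-1.16 to -0.63), and was lower in all 6 clusters. SLC43A2, a carrier of leucine and other large neutral amino acids, was at 68.0 and 37.1 CPM, a ratio of -0.88 (-1.01 to -0.74), and was lower in 5 clusters and at 0.13 in cluster 8. With a limit of 1300 UMIs per nucleus the SLC43A2 ratio was -0.01. SLC1A4 and SLC7A11 had smaller differences in the same direction, at -0.56 (-0.79 to -0.35) and -0.42 (-0.47 to -0.38). SLC3A2, the heavy chain, was at 37.8 and 29.7 CPM, a ratio of -0.35 (-0.51 to -0.19). It was lower in 4 of the 6 clusters and higher in 2. Only in cluster 2, at -0.84 (-1.19 to -0.51), did its interval exclude 0.

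Higher in PIGinH11 acinar-like nuclei was SLC1A2, with 13.3 CPM (12.1 to 14.7) in WT and 33.9 CPM (31.0 to 36.9) in PIGinH11, a log2 ratio of 1.34 (1.15 to 1.54). It was higher in all 6 clusters, with ratios from 0.69 to 1.98. SLC38A11 and SLC7A14 had 1.46 CPM each in WT and 4.92 and 4.14 CPM in PIGinH11, ratios of 1.76 (1.20 to 2.33) and 1.51 (0.93 to 2.10). SLC6A11, a GABA carrier, was at 1.16 and 2.91 CPM (ratio 1.33) and SLC6A6 at 1.52 and 3.37 CPM (ratio 1.15).

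SLC38A11, SLC7A14 and SLC6A11 are enriched in endocrine-like nuclei, where SLC38A11 was at 66.4 and 50.8 CPM, SLC7A14 at 271 and 282 CPM and SLC6A11 at 12.9 and 51.7 CPM. Endocrine-like nuclei gave 2.66% of WT and 5.18% of PIGinH11 UMIs, and the 13 endocrine markers summed to 119 CPM in WT and 182 CPM in PIGinH11 acinar-like nuclei. The part of islet RNA in these 3 ratios was not tested. The acinar-like level of SLC7A2 moved the same way, from 27.1 to 46.7 CPM (ratio 0.78, 0.64 to 0.93), and that of SLC38A4 from 4.27 to 8.16 CPM (ratio 0.93, 0.57 to 1.30).

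SLC43A1, the deepest member, had a ratio of 0.13 (0.09 to 0.17) from 15614 and 8729 UMIs, SLC38A5 of -0.19 (-0.27 to -0.11), SLC38A9 of -0.08 and SLC38A2 of 0.08. SLC7A1 and SLC1A3 were higher in PIGinH11 with 0.33 (0.26 to 0.41) and 0.40 (0.33 to 0.47), and SLC38A10 with 0.69 (0.60 to 0.77). SLC3A1 was at 24.8 and 41.5 CPM, a ratio of 0.74 (0.59 to 0.90). The narrow intervals hold counting error alone. The median log2 ratio of all genes in this class was itself 0.20 with at least 50 UMIs and 0.28 with at least 20. The ratios of SLC7A1 and SLC1A3 thus lie close to that of a typical gene, and SLC43A1 lies below it.

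The 15 members that span at least 50 kb had a median log2 ratio of 0.78 in acinar-like nuclei, and the 24 members of 10 to 50 kb one of -0.13. The same order was found in ductal-like nuclei, at 0.80 for 11 and 0.13 for 17 members, and in stellate-like nuclei, at 0.34 for 4 and -0.20 for 5. In endocrine-like nuclei the order was the reverse, at 0.06 for 13 members of at least 50 kb and 0.40 for 12 members of 10 to 50 kb. It was also the reverse in endothelial-like nuclei, at -0.12 for 5 and 0.40 for 6 members. Beta-like and alpha-like nuclei had the reverse order too, with only 2 and 1 members of 10 to 50 kb. Over all genes the acinar-like and ductal-like checks are void, since only 67.1% and 75.2% of the genes compared had a span in the annotation by symbol. The share with a span was 82.4% in endocrine-like, 83.3% in endothelial-like and 86.1% in stellate-like nuclei. Over all genes of at least 50 kb the medians there were 0.05, 0.10 and 0.08. Over all genes of 10 to 50 kb they were 0.05, -0.004 and 0.04. Between these ranges the medians thus differed less over all genes than over the few members. Genes under 10 kb, a range without members in these classes, had all-gene medians of -0.07, -0.10 and -0.52. The part of gene length, and of the lower ribosomal protein and mitochondrial shares of the PIGinH11 library, in the ratios was not tested.

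**Figure D4:**
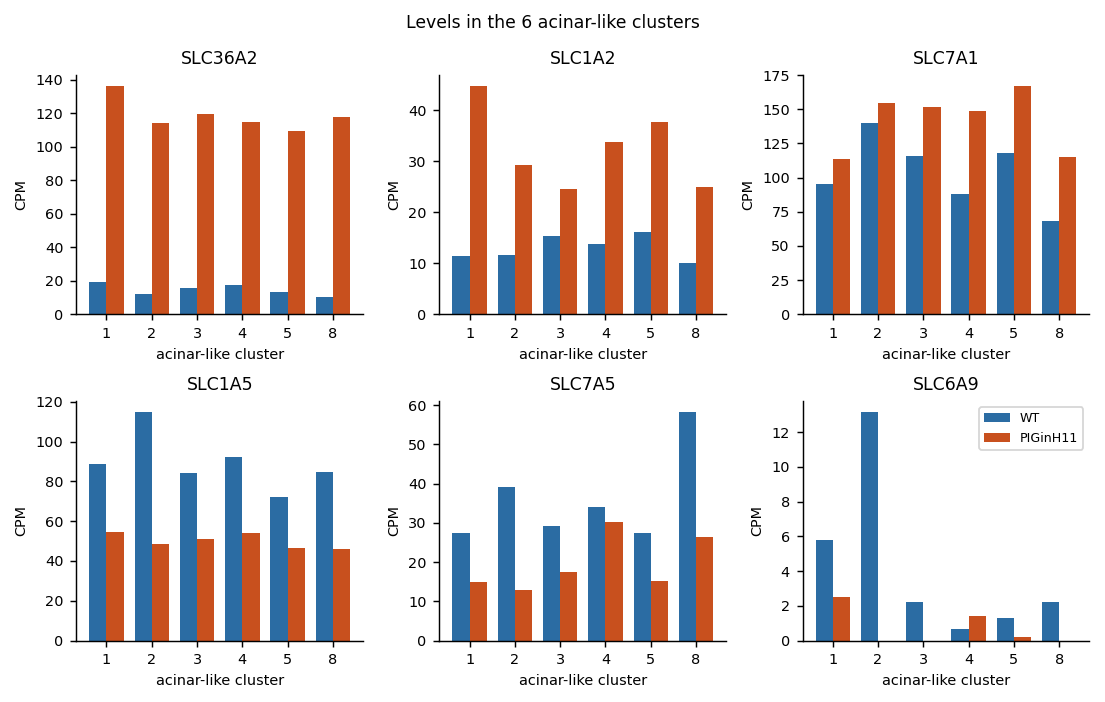
CPM of 6 members in the 6 acinar-like clusters, WT in blue and PIGinH11 in orange, on linear axes from 0. SLC36A2 and SLC1A2 are higher in PIGinH11 in all 6 clusters, SLC1A5 and SLC7A5 are lower in all 6, and most WT UMIs of SLC6A9 are in cluster 2, where PIGinH11 has 0.

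Several of the lower members are known targets of ATF4, the transcription factor of the amino acid response that is translated when amino acids run short or the endoplasmic reticulum is stressed. Other genes of this response were counted from a list of 22 genes, which includes ATF4 itself and no transporter. The list was chosen with earlier results of these data known, and a part of ATF4 in the ratios was not tested. In acinar-like nuclei 12 of the 22 were at least 2-fold lower in PIGinH11 and 0 were higher, with a median log2 ratio of -1.05, against the 2.96% and the median of 0.20 over all genes. CHAC1, which degrades glutathione, was at 12.9 and 0.906 CPM, a ratio of -3.83 (-4.72 to -3.07). PSAT1, an enzyme of serine synthesis, was at 103 and 18.1 CPM, a ratio of -2.52 (-2.70 to -2.34).

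ATF5 was at 197 and 19.1 CPM (ratio -3.36), STC2 at 19.5 and 1.62 CPM (ratio -3.59) and TRIB3 at 3.84 and 0.777 CPM (ratio -2.30). SESN2, DDIT4, PHGDH, SHMT2, CEBPB, ATF3 and GPT2 made up the other 7, with ratios from -1.70 to -1.02. ATF4 itself was at 160 and 126 CPM (ratio -0.34), ASNS at 85.4 and 86.2 CPM (0.01) and NUPR1 at 1294 and 1582 CPM (0.29), so the list did not move as a whole.

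Of 7 members known as ATF4 targets, SLC6A9, SLC7A5, SLC1A5, SLC7A11 and SLC3A2 were lower in acinar-like nuclei and SLC7A1 and SLC38A2 were higher. SLC7A1 lay close to the median of all genes in this class, 0.20, and SLC38A2 lay below it. By cluster, SLC38A2 was lower in 2 of the 6 acinar-like clusters. These 7 were picked after their values were seen, so their split cannot be set against that of other genes. In ductal-like nuclei 3 of 16 measured genes of the list were at least 2-fold lower (SESN2, PSAT1 and ATF5) and ATF3 was higher, against 3% and 10.5% of all genes. In endocrine-like nuclei 1 of 6 was lower (VLDLR) and 1 higher (NUPR1), against 2.45% and 5.45%. In stellate-like nuclei 1 of 4 was higher (VLDLR), against 4%, and 0 were past the fold of the 4, 2 and 1 measured in endothelial-like, beta-like and alpha-like nuclei.

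Of 20 genes of amino acid sensing to mTORC1 measured in acinar-like nuclei MLST8 was at least 2-fold higher, at 7.87 and 16.6 CPM, and 0 were lower. Over all genes 15.9% were higher and 2.96% lower. The median of the 20 was -0.06 against 0.20 over all genes. MLST8 of 18 was higher in ductal-like and NPRL3 of 12 in endothelial-like nuclei, against 10.5% and 4.89% of all genes. In both 0 were lower, against 3% and 2.99%. Of the 14, 10, 9 and 5 measured in endocrine-like, stellate-like, beta-like and alpha-like nuclei, 0 were past the fold. There 5.45%, 4%, 3.77% and 3.34% of all genes were higher and 2.45%, 4.09%, 3.19% and 3.26% lower. Of other amino acid and peptide carriers, 0 of 13 were past 2-fold in acinar-like nuclei, with a median of 0.08, and 1 of 13 was lower in ductal-like (SLC25A38) and 1 of 3 higher in beta-like nuclei (SLC25A13). In endocrine-like, endothelial-like, stellate-like and alpha-like nuclei, 0 of 8, 3, 2 and 3 were. The shares and the acinar-like median over all genes given above for each class apply to these carriers too.

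In ductal-like nuclei, which line the ducts and secrete bicarbonate, 4 of 29 members were at least 2-fold higher in PIGinH11 and 1 was lower, against 10.5% and 3% of all genes. The median log2 ratio of the members was 0.48 against 0.12. The 4 higher members were SLC38A4 at 2.44 and 8.73 CPM, SLC7A8 at 3.37 and 9.03 CPM, SLC38A7 at 3.60 and 8.43 CPM and SLC7A2 at 6.74 and 14.5 CPM. The lower one was SLC6A4, the serotonin carrier, with 53 and 10 UMIs (6.16 and 3.01 CPM).

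Among members with at least 100 ductal UMIs, the ratios of SLC7A2, SLC7A11, SLC7A1, SLC38A5 and SLC3A2 were the largest. SLC7A11 was at 23.0 and 43.4 CPM (ratio 0.91, 0.59 to 1.23) and SLC7A1 at 12.1 and 22.0 CPM (0.86, 0.41 to 1.31). SLC38A5 was at 11.0 and 19.9 CPM (0.85), and SLC3A2 at 17.1 and 30.4 CPM (0.83, 0.45 to 1.21). Ductal-like cluster 6 held 1395 WT and 1210 PIGinH11 nuclei, and cluster 7 held 580 and 903. In cluster 6 the ratio of SLC38A5 was 0.01 (-0.71 to 0.69) and that of SLC7A11 0.39 (-0.08 to 0.85). In cluster 7 they were 1.40 (0.53 to 2.31) and 0.73 (0.21 to 1.25). In clusters 6 and 7, SLC7A2 was at 0.97 and 0.85, SLC7A1 at 0.60 and 1.20 and SLC3A2 at 0.57 and 1.33. The part of cluster shares in the class ratios was not tested. For SLC7A11, SLC38A5 and SLC3A2 the direction over the whole class was opposite to that in acinar-like nuclei. This was not tested as a difference between the classes.

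The acinar markers summed to 1361 CPM in WT and 1963 CPM in PIGinH11 ductal-like nuclei and the endocrine markers to 185 and 334 CPM, while the digestive enzyme genes summed to 29966 and 6339 CPM. Their part in the ratios of members that are higher in acinar-like or endocrine-like nuclei was not tested. Lowest were SLC7A9 at 14.4 and 9.03 CPM (-0.67, -1.30 to -0.09), SLC36A4 (-0.25), SLC6A8 (-0.25), SLC1A2 (-0.21, -0.39 to -0.04, but 1.47 with a limit of 1300 UMIs per nucleus) and SLC38A9 (-0.14, -0.36 to 0.07). SLC1A2 is highest in this class in WT.

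In endocrine-like nuclei 5 of 25 members were at least 2-fold higher and 0 lower, against 5.45% and 2.45% of all genes. The median ratio was 0.15 against 0.05. The class held 50 WT and 221 PIGinH11 nuclei that were not assigned to an islet class and in which the acinar markers summed to 4095 and 10082 CPM, against 964 and 1523 CPM in the alpha-like, beta-like, delta-like and gamma-like nuclei. Limited to these islet nuclei, all 5 remained at least 2-fold higher, but SLC1A3 was then below the minimum of 50 UMIs. It went from 2.99 to 12.2 CPM from only 3 and 11 UMIs (ratio 2.03, 0.11 to 4.52). SLC43A1 went from 17.9 to 41.1 CPM from 18 and 37 UMIs (1.20, 0.35 to 2.10). SLC38A10 went from 27.9 to 58.9 CPM from 28 and 53 UMIs (1.08, 0.39 to 1.80). These 3 are high in acinar-like nuclei, and the part of acinar RNA was not tested.

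SLC6A17 and SLC6A11 are not high in acinar-like nuclei, where SLC6A17 was at 2.05 and 3.17 CPM. SLC6A17, a vesicular carrier of neutral amino acids known from neurons, was at 72.4 and 146 CPM in endocrine-like nuclei, a ratio of 1.02 (0.63 to 1.41). In beta-like nuclei it was at 64.6 CPM (46.0 to 88.4) from 39 UMIs in WT and 178 CPM (139 to 225) from 71 UMIs in PIGinH11. It was the only one of 10 members past 2-fold in beta-like nuclei, with 0 lower, against 3.77% and 3.19% of all genes.

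SLC6A17 was higher in alpha-like nuclei too, at 52.2 and 98.4 CPM, and in delta-like nuclei, at 138 and 276 CPM, although the alpha-like interval of the ratio (-0.06 to 1.93) includes 0. SLC6A11 was at 12.9 CPM from 15 UMIs and 51.7 CPM from 60 UMIs in endocrine-like nuclei, a ratio of 2.00 (1.16 to 2.92). In beta-like nuclei WT held 0 SLC6A11 UMIs, which allows up to 4.97 CPM, and PIGinH11 held 24 at 60.2 CPM, at least 12.1-fold higher against a floor of 3 UMIs in the WT library. This value was singled out after it was seen, since it is below 50 UMIs.

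SLC7A8 and SLC7A2 were lower in PIGinH11 in the endocrine-like class as a whole, with ratios of -0.70 (-0.88 to -0.53) and -0.36 (-0.50 to -0.22). In the islet nuclei alone these were -0.48 (-0.66 to -0.30) and -0.16 (-0.30 to -0.01). Within alpha-like nuclei SLC7A8 was at -0.49 (-0.68 to -0.29) and SLC7A2 at -0.05 (-0.25 to 0.15). In beta-like nuclei they were at -0.44 (-0.96 to 0.05) and -0.02 (-0.25 to 0.20), both intervals of SLC7A2 thus including 0. Endocrine-like cluster 19, whose leading gene was SST, had SLC7A2 at 420 CPM from 53 UMIs in WT and 41.7 CPM from 7 UMIs in PIGinH11, a ratio of -3.33 (-4.71 to -2.19). This cluster held 37 WT and 71 PIGinH11 nuclei and is not the delta-like class, which held 26 and 64. Its ratio thus cannot be read as that of delta-like nuclei. In endocrine-like cluster 12, with 104 WT and 287 PIGinH11 nuclei, SLC7A2 was at 1262 and 889 CPM, a ratio of -0.50 (-0.69 to -0.32).

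SLC38A4 had the opposite direction, at 0.40 (0.20 to 0.60) in alpha-like and 0.78 (0.56 to 0.99) in beta-like nuclei, the latter at -0.07 with a limit of 1300 UMIs per nucleus. SLC7A14 was at 0.17 (-0.23 to 0.58) and 0.31 (-0.05 to 0.66). In beta-like nuclei SLC38A9 was at 0.54 (-0.04 to 1.12) and SLC6A6 at 0.00 (-0.61 to 0.59). In alpha-like nuclei 2 of 8 members were at least 2-fold higher and 0 lower, against 3.34% and 3.26% of all genes. They were SLC43A2 at 87.1 and 193 CPM from 25 and 51 UMIs and SLC6A6 at 66.2 and 140 CPM from 19 and 37 UMIs.

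In endothelial-like nuclei 1 of 11 members was at least 2-fold higher and 0 lower, against 4.89% and 2.99% of all genes. This was SLC7A1, at 10.9 CPM from 12 UMIs and 30.4 CPM from 38 UMIs, a ratio of 1.48 (0.52 to 2.55). The class consisted of 2 clusters, of which 1 held 72 WT and 265 PIGinH11 nuclei. Without clusters that held under 25% of nuclei from 1 library, 0 members with at least 50 UMIs were past 2-fold. SLC7A1 was then below that minimum with 9 and 19 UMIs, at 11.4 and 27.5 CPM, a ratio of 1.28 (0.06 to 2.60). SLC43A1 and SLC38A10 were at 0.83 (0.33 to 1.36) and 0.78 (0.16 to 1.42, but -0.85 with the limit of 1300 UMIs), SLC38A2 at 0.34 (0.04 to 0.64) and SLC7A11 at 0.20 (-0.38 to 0.79). Without those clusters SLC43A1 was at 0.42 (-0.26 to 1.10), SLC38A10 at 0.67 (-0.14 to 1.51), SLC38A2 at -0.03 and SLC7A11 at -0.56 (-1.55 to 0.39).

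The taurine carrier SLC6A6 was at -0.30 (-0.65 to 0.06) in these nuclei, SLC36A4 at 0.01 (-0.32 to 0.33), SLC7A7 at -0.05, SLC38A9 at -0.12 and SLC38A6 at -0.39 (-0.87 to 0.09). A difference between the libraries in these 5 was not detectable at this depth. The acinar markers in endothelial-like nuclei summed to 1145 CPM in WT and 2167 CPM in PIGinH11 and the digestive enzyme genes to 37420 and 6500.2 CPM, and their part in the SLC7A1, SLC43A1 and SLC38A10 ratios was not tested.

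In stellate-like nuclei, the fibroblast-like cells that lay down matrix, 1 of 9 members was at least 2-fold higher and 0 lower, against 4% and 4.09% of all genes. This was SLC7A11 at 39.7 and 85.6 CPM from 29 and 40 UMIs (1.11, 0.38 to 1.85). It was no longer past 2-fold without doublet removal, without Harmony correction or with a minimum of 500 genes per nucleus, and with nuclei thinned to 500 UMIs or a minimum of 200 UMIs in the class 0 members were deep enough. The 3 members with at least 100 UMIs there were SLC1A3 at 134 and 182 CPM (0.44, 0.00 to 0.87), SLC38A9 at 112 and 133 CPM (0.24, -0.26 to 0.74) and SLC36A4 at 97.1 and 62.0 CPM (-0.65, -1.32 to -0.00, but 0.76 with nuclei thinned to 500 UMIs).

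**Figure D5:**
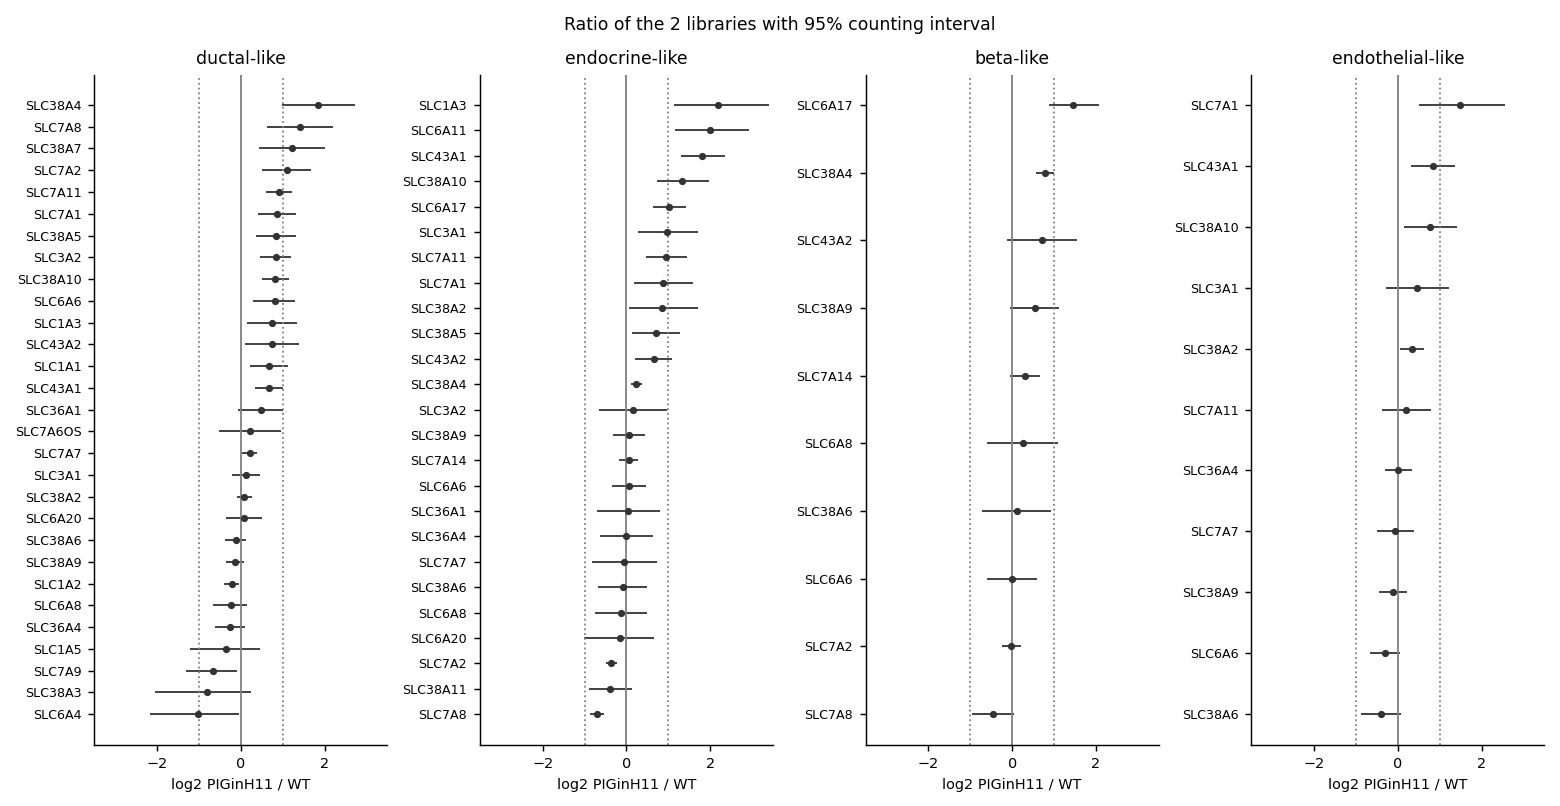
Log2 of PIGinH11 CPM over WT CPM in ductal-like, endocrine-like, beta-like and endothelial-like nuclei for the members with at least 50 UMIs of the class, with 95% conditional binomial intervals as bars and dotted lines at 2-fold. In ductal-like nuclei 20 of 29 ratios are above 0. The median of all genes with at least 20 UMIs there was itself 0.18, and 17 of the 29 are above it. SLC6A17 is the highest of the 10 in beta-like nuclei at 1.46.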

How the data were processed

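Pancreas nuclei of 1 WT and 1 PIGinH11 pig had been sequenced. The deposited values are raw UMI counts per gene and barcode, which the authors made by alignment to Sscrofa11.1, before their filters. The submitters' processing notes give Cell Ranger v3.1.0, whereas the matrix headers give v5.0.0. The libraries held 55784067 and 26228811 UMIs.

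A barcode was kept if it had 270 to 3700 genes, a mitochondrial share below 10% and under 13000 UMIs. Since the printed UMI limit is 1300, that value served as an alternative. The 0.8% of barcodes with the highest Scrublet scores (scanpy v1.11.5) for each 1000 barcodes were removed as doublets in place of DoubletFinder. Principal components (30) of 2000 variable genes, chosen without 182 genes (all members, the listed genes, 13 mitochondrial and 52 ribosomal protein genes), were corrected with the Harmony algorithm written in numpy, and Louvain clustering (igraph v0.11.9, resolution 1, seed 0) was run on a graph of 20 neighbours. Clusters of at least 20 nuclei were named from at least 3 markers, each in 5% or more of its nuclei and, with an offset of 5 CPM, 1 or more log2 units above the other clusters. Clusters 9 and 21 stayed unnamed and were not used. Endocrine-like and immune-like nuclei were clustered again, and sub-clusters that could not be named stayed in the broad class only.

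Class levels are sums of UMIs over nuclei, scaled to the class total. Intervals were computed with scipy v1.17.1. The members and lists were chosen with earlier results of these data known. The text names every enriched member, the 5 largest and 5 smallest ratios among members with at least 100 UMIs in acinar-like, ductal-like, alpha-like, beta-like, endothelial-like and stellate-like nuclei, SLC7A8, SLC7A2 and the chains of the heterodimers, and the other members by family. The ATF4 list had 22 of 22 genes with a symbol, the mTORC1 list 20 of 25 and the list of other carriers 18 of 19. SLC7A6 and SLC38A1 carry no symbol here and were not analysed. A single member is counted but not reported here. Positions of all 57 genes were matched by symbol to RefSeq (Sscrofa11.1). Adipocyte, mast cell and B or plasma cell markers were found at 15.5 and 22.5, 104 and 58.9, and 43.5 and 46.1 CPM over all WT and PIGinH11 nuclei, and no class was named for them. Summing, ratios, intervals and the enrichment rule were tested on simulated data. The alternatives were other scalings, thinning to 500 UMIs, no doublet removal, other limits per nucleus, no Harmony, resolution 2, other UMI minimums, other folds, and 3 choices of clusters added after seeing the data.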

Additional observations from a re-analysis of the deposited data

How the results depend on the processing

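Of 181 counts recomputed under the alternatives, 127 stayed within 1.5 times the main count and 54 moved further. Of 505 recomputed ratios of named members, 452 stayed inside the counting interval of the main ratio and 53 left it. No ratio of at least 2-fold turned direction, but smaller ones did in 39 of the 505, and in 7 of these the main interval excluded 0: SLC1A2 in ductal-like nuclei (1.47), SLC38A10 in endothelial-like (-0.85) and SLC38A4 in beta-like nuclei (-0.07) with a limit of 1300 UMIs, SLC36A4 in stellate-like nuclei when thinned (0.76), and SLC38A2 in endothelial-like nuclei with the mean over nuclei (-0.04), at resolution 2 (-0.03) and without clusters mostly from 1 library (-0.03). The cause was not tested unless fewer genes or nuclei entered by construction. The share of all genes past the same rule follows each count in parentheses. With at least 20 UMIs in place of 50, members at least 2-fold higher numbered 11 in acinar-like (21%), 10 in ductal-like (17.3%), 2 in beta-like (6.92%), 5 in endothelial-like (8.51%) and 4 in stellate-like nuclei (7.94%), and 2 in ductal-like (3.62%) and 1 in stellate-like (5.47%) were lower. With at least 200 UMIs, 2 were higher in acinar-like (7.9%), 1 in endocrine-like (3.43%) and 0 in ductal-like (3.53%), beta-like (1.88%), endothelial-like (2.59%) and stellate-like nuclei (1.59%), and 0 were lower in acinar-like (2.67%) or ductal-like nuclei (2.45%). Thinned to 500 UMIs per nucleus, 2 were higher in acinar-like (11.6%), 1 in endocrine-like (6.68%) and 0 in the beta-like (3.29%), ductal-like (7.57%), endothelial-like (6.71%) and stellate-like nuclei (5.48%), while 1 was lower in endocrine-like (4.31%) and 0 in ductal-like nuclei (3.16%), and 7 members were enriched (6.08%). With a limit of 1300 UMIs, 1 was higher in ductal-like (11.7%), 2 in endocrine-like (24.8%), 2 in stellate-like (25.8%) and 0 in beta-like (14.1%) and endothelial-like nuclei (16%), 1 was lower in endocrine-like nuclei (9.42%), 0 in the acinar-like (2.96%) and 0 in the ductal-like class (3.68%), and enrichment could not be given since a class had no nuclei. With a minimum of 500 genes, 2 were higher in ductal-like (9.38%) and 0 in stellate-like nuclei (3.91%), and 2 were lower in acinar-like (3.03%) and 0 in ductal-like nuclei (3%). With the mean over nuclei, 2 were higher in endothelial-like (7.72%) and 2 in stellate-like nuclei (5.67%), 1 was lower in endocrine-like (3.83%) and 1 in stellate-like nuclei (4.77%), and 9 were enriched (11.5%). Median-of-ratios scaling gave 6 lower members in acinar-like nuclei (5.54%), and leaving enzyme, ribosomal protein and mitochondrial genes out of the denominator gave 2 (3.25%). Without Harmony, 0 were higher in endothelial-like (4.81%) and stellate-like nuclei (3.8%) and 2 were lower in acinar-like nuclei (2.87%). Without doublet removal, 8 were higher in ductal-like (12.3%), 2 in endothelial-like (4.58%) and 0 in stellate-like nuclei (3.63%), and 2 were lower in acinar-like (2.83%) and 0 in ductal-like nuclei (2.73%). At resolution 2, and without clusters mostly from 1 library (chosen after seeing the data), 0 were higher in endothelial-like nuclei (2.9% in both). An 8-fold rule left 7 enriched members (8.56%). Over the alternatives the acinar-like ratio of SLC36A2 ranged from 2.78 to 3.08 and that of SLC6A9 from -3.52 to -1.34, the last with the limit of 1300 UMIs. No paired analysis was possible because each group has 1 library, and leaving out a replicate was likewise not run. The minimum of 50 UMIs was reached by 40 members in the acinar-like and 29 in the ductal-like class, but by at most 25 in any other class compared.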
